A study of Mus musculus with 23 samples.

Results

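The effect of phenobarbital was described in livers whose hepatocytes lack beta-catenin, across all genes on the array. All arrays titled as Ctnnb1 knockout with phenobarbital (n = 7) were set against all those titled as Ctnnb1 knockout without it (n = 7), which makes 14 of the 23 arrays of the series. The other 9 arrays are wild-type livers with phenobarbital (n = 4) and without it (n = 5), and they were used only to say where the response in knockout differed. RNA came from livers of male C3H mice, and each array is 1 sample. Treated mice ate a diet with 0.05% phenobarbital over 12 weeks, and control mice a diet free of it. The labels also list water at a dose of 0% as the controls' vehicle. All 14 knockout samples carry the same deletion, made by Cre recombinase that the albumin promoter drives, in mice with loxP sites around exons 3 to 6 of Ctnnb1. The promoter is known for its activity in hepatocytes and their precursors. Which cells of these livers lost the gene was not tested. The lines were backcrossed for 5 generations. Replicates are numbered in the labels, which leave unsaid whether each number is another animal, and the p-values therefore cover only the spread between samples, which may be technical.

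Phenobarbital is a barbiturate that activates the constitutive androstane receptor (CAR, gene Nr1i3) in hepatocytes. CAR and its relative, the pregnane X receptor (PXR, gene Nr1i2), bind DNA with the partner RXR and switch on cytochromes P450, conjugating enzymes and efflux transporters. Beta-catenin carries the canonical Wnt signal to the nucleus and keeps up the programme of hepatocytes around the central vein, where many P450 genes, Cyp2e1 and glutamine synthetase are normally expressed. In mice, phenobarbital promotes liver tumours, and the question of the comparison was which of its effects on RNA remain without beta-catenin in hepatocytes.

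The labels were first set against marker genes. Ctnnb1 itself had log2 signals of 12.08 to 12.37 (median 12.18) in knockout with phenobarbital and of 12.11 to 12.42 (median 12.19) in knockout controls. In wild-type livers it had 12.03 to 12.10 with phenobarbital and 12.18 to 12.23 without. Its signal was thus not lower in knockout on this probe set. Where the probe sets of Ctnnb1 lie relative to the deleted exons is not given in the sources used here, so this signal checks nothing. Genes that depend on beta-catenin did separate the genotypes: Cyp2e1 was at 6.79 to 10.74 over the 14 knockout arrays, against 13.94 to 14.17 over the 9 wild-type arrays. Oat, an ornithine aminotransferase of perivenous hepatocytes, was at 6.93 to 8.64 in knockout arrays, against 11.35 to 12.69 in wild-type arrays. Hepatocyte markers were high on every knockout array, with a mean of 12.94 to 13.05 with phenobarbital and 12.96 to 13.07 without, against 12.85 and above in wild type.

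Signals of other cell types varied widely among the knockout arrays, in both groups. The mean log2 level of 32 macrophage markers was 7.11 to 9.16 (median 8.13) with phenobarbital and 7.19 to 9.62 (median 8.77) without it. Wild-type arrays spanned only 6.46 to 6.62 and 6.46 to 7.09. Phenobarbital replicates 4, 5 and 7 and control replicates 1, 2, 6 and 7 were high in macrophage markers, so arrays of both kinds stood in each group. Of the 32, 0 changed between the groups in limma, and 0 had an unadjusted p under 0.05. The defining markers were not absent anywhere: the lowest level over the 14 arrays was 7.09 for Adgre1, 9.57 for Cd5l and 5.78 for Cd68. Stellate cell and scar markers (34 genes) averaged 6.81 to 7.64 with phenobarbital and 7.06 to 8.37 without, with control replicates 2, 6 and 7 on top. Neutrophil markers (9 genes) averaged 5.30 to 5.89 with phenobarbital and 5.46 to 6.95 without. In whole tissue, fewer cells of a type and less RNA per cell cannot be told apart.

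The typical spread of a gene was larger in knockout controls (median SD 0.160) than in knockout with phenobarbital (0.136). The SD was larger in the controls for 67.8% of genes, and the least alike arrays within a group correlated at 0.968 with phenobarbital and 0.945 without. Without control replicates 2, 6 and 7 the median SD of the controls was 0.109, their lowest correlation 0.985, and their SD the larger one for only 33.0% of genes. Those 3 arrays were picked because earlier results of these data showed them to stand apart. Results were therefore also computed without them, and with the first principal component of 134 non-hepatocyte markers over the 14 arrays as a covariate. That component held 78.4% of the markers' variance. It is called the non-hepatocyte covariate here.

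**Figure D1:**
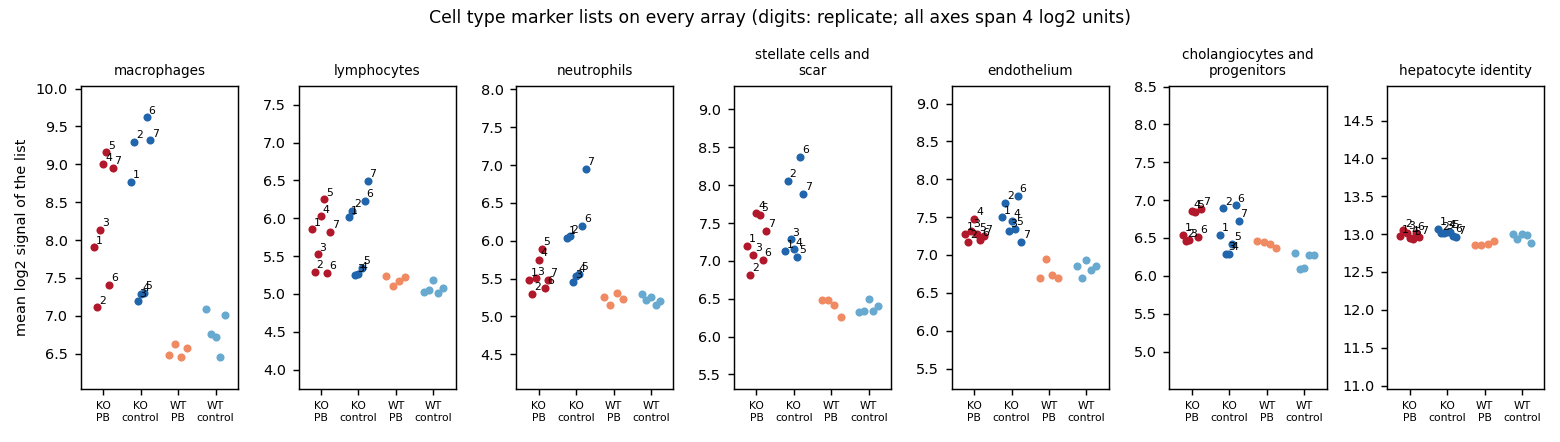
Mean log2 signal of the marker list of each cell type on every array, with 1 point per array, knockout with phenobarbital (PB) left of its controls and wild type to the right, and the replicate number beside the knockout points. Macrophage, lymphocyte and stellate cell markers spread widely within both knockout groups (macrophages 7.11 to 9.16 with phenobarbital and 7.19 to 9.62 without), while hepatocyte markers stayed between 12.94 and 13.07.

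Phenobarbital still changed liver RNA without hepatocyte beta-catenin, and the largest effects were rises of drug-metabolising enzymes. Among 13826 genes tested with limma, 100 (0.723%) passed an adjusted p of 0.05 (Benjamini-Hochberg) and are called changed. Of these, 63 genes rose (0.456%) and 37 fell (0.268%). The rises were larger: 14 genes rose at least 2-fold, 0.101% of all tested, while 0 fell that far in limma (748 genes were lower at an unadjusted p under 0.05, 5.41%, and 6.56% were higher). The groups did not overlap on any array for 48 of the genes that rose and 25 of those that fell. Over all genes tested, 0.636% had every phenobarbital array above every control and 0.34% the reverse. The median log2 change of all genes was 0.0056.

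The 100 genes kept their calls when non-hepatocyte signal was allowed for, and more genes joined them. With the non-hepatocyte covariate 428 genes passed (3.1%), with 204 higher (1.48%) and 224 lower (1.62%), and all 100 were among them. With the mean of the macrophage markers as the covariate 345 genes (2.5%) passed, again with all 100. Without control replicates 2, 6 and 7, 289 genes (2.09%) passed, with 74 of the 100 among them. In that fit the macrophage markers were higher with phenobarbital (median log2 change 0.62, against -0.14 with all arrays). Leaving out 1 array at a time gave 52 to 146 genes, and 46 of the 100 passed in all 14 such fits. The count fell to 60, 66, 63 and 52 without phenobarbital replicates 1, 3, 4 and 6.

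**Figure D2:**
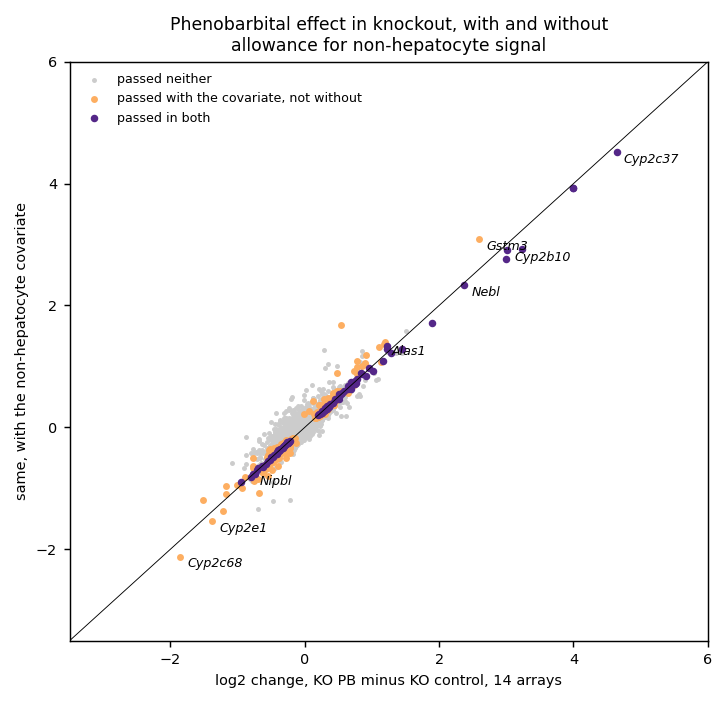
Log2 change with phenobarbital in knockout for each of 13826 genes, without a covariate on the horizontal axis and with the non-hepatocyte covariate on the vertical axis, in log2 units. The 100 genes that passed in both fits lie along the diagonal, while 328 further genes, such as Gstm3 and Cyp2e1, passed with the covariate and not without it. For 310 of the 328 the change with the covariate was within 1.5 times that without it.

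The cytochromes P450 of the Cyp2c and Cyp2b families held the 6 largest rises. These enzymes oxidise drugs, steroids and fatty acids in the endoplasmic reticulum. Of 18 tested genes of the Cyp2b, Cyp2c and Cyp3a families 6 rose and 0 fell, with a median log2 change of 0.90 over all 18. Beside this list and those below, 0.456% of all genes tested rose and 0.268% fell. At an unadjusted p under 0.05, 6.56% of all genes were higher and 5.41% lower. Cyp2c37, an epoxygenase of fatty acids (GRCm38.p6 chr19:39992424-40012243), was at 11.08 to 12.30 (median 11.47) in knockout with phenobarbital and at 5.66 to 8.39 (median 7.02) in knockout controls. Every treated array lay more than 2 log2 units above every control. The log2 change was 4.64 (SE 0.36, limma adjusted p = 1.1e-05), the largest of all genes. The range of treated knockout livers overlapped that of untreated wild-type livers, 10.45 to 11.65.

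Cyp2c55 (chr19:39006940-39042690) was at 12.00 to 12.78 (median 12.70) with phenobarbital and at 6.83 to 9.74 (median 8.56) in controls, without overlap (log2 change 3.999, SE 0.34, limma adjusted p = 2.33e-05). Its neighbour Cyp2c65 (chr19:39061006-39093948) was at 5.93 to 8.03 (median 7.11) with phenobarbital and at 2.93 to 3.33 (median 3.10) in controls (log2 change 3.997, SE 0.28, limma adjusted p = 8.08e-06). All Cyp2c65 controls lay below 4.56, the average 40th percentile of an array, so the size of that rise is uncertain, and against that level it was 2.53. Cyp2c54 and Cyp2c50 varied more among controls. Cyp2c50 was at 13.34 to 13.85 (median 13.58) with phenobarbital and at 8.26 to 12.10 (median 11.28) in controls, and Cyp2c54 at 12.52 to 13.40 (median 13.21) and 6.91 to 11.81 (median 10.24). Neither overlapped between the groups, and both rose (3.00, SE 0.52, limma adjusted p = 0.0162, and 3.24, SE 0.66, limma adjusted p = 0.0394). Without control replicates 2, 6 and 7 their changes were 1.90 and 1.87, more than 1.5 times smaller on the log2 scale. The call of Cyp2c54 was lost in 10 of the 14 fits that left out 1 array. Cyp2c genes are close paralogues, and how far one hybridises to another's probes was not tested.

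Cyp2b10, the classical CAR target (chr7:25897658-25926624), was at 12.51 to 12.97 (median 12.82) with phenobarbital and at 7.76 to 10.62 (median 10.20) in controls. The groups did not overlap, and the log2 change was 3.01 (SE 0.34, limma adjusted p = 0.000595). Each of its 3 probe sets rose, by 2.77 to 3.01. Treated livers of both genotypes reached a similar level, 12.51 to 12.97 in knockout and 12.58 to 12.70 in wild type, whereas controls were at 7.76 to 10.62 in knockout and 5.22 to 6.22 in wild type. Cyp2c29 had no overlap either, at 13.77 to 14.06 (median 13.89) with phenobarbital and 10.05 to 13.70 (median 13.40) in controls, but did not pass (log2 change 1.45, SE 0.50, limma adjusted p = 0.232). Without control replicates 2, 6 and 7 its change was 0.37 (adjusted p = 0.0279). Cyp3a11, the main P450 of the PXR response, was near the top of the scale in both groups, 14.33 to 14.46 and 14.14 to 14.32 (log2 change 0.15, adjusted p = 0.157). The highest value in the whole table is 14.92. Cyp2b9 and Cyp2b13 had log2 changes of 1.35 and 1.51 without passing (adjusted p = 0.381 and 0.151).

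The sequences before the listed start sites are shown for 5 of the Cyp2b and Cyp2c genes that rose. Cyp2c54 had no entry, and Cyp1a2 and Cyp2g1, P450 genes that also rose, were left out. Each sequence is 250 bases of the plus strand in RefSeq's GRCm38.p6 annotation. They are chr7:25897408-25897657 for Cyp2b10, chr19:39992174-39992423 for Cyp2c37, chr19:40089429-40089678 for Cyp2c50, chr19:39006769-39007018 for Cyp2c55 and chr19:39060756-39061005 for Cyp2c65. The Cyp2c55 window ends before a start site that lies inside the gene's annotated span, so its last 79 bases are within that span. Capitals mark CAAAGTNCA, a form of the element that HNF4A, a nuclear receptor of hepatocytes, binds.
Cyp2b10: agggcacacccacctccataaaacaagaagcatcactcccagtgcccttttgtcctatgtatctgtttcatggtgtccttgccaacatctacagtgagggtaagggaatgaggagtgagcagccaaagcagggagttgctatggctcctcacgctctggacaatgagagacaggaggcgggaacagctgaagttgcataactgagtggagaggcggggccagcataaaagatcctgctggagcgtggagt
Cyp2c37: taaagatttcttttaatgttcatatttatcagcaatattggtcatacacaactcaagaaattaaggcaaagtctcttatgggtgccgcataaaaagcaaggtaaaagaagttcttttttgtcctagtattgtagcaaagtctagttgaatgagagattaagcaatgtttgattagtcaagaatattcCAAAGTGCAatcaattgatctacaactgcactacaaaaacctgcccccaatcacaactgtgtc
Cyp2c50: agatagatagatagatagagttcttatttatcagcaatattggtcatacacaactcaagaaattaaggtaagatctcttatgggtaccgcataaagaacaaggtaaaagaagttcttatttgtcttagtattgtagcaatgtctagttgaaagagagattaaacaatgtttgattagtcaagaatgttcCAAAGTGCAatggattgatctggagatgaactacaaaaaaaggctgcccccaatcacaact
Cyp2c55: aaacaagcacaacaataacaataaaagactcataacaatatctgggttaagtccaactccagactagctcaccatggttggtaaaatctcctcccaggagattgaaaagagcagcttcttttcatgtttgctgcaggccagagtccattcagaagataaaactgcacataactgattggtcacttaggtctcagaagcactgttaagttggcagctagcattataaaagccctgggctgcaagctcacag
Cyp2c65: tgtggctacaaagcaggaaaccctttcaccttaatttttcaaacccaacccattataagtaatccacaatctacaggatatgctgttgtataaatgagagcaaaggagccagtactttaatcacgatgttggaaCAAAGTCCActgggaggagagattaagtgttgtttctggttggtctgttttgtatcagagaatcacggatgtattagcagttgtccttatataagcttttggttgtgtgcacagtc

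Letters matching CAAAGTNCA on either strand stood once each before Cyp2c37, Cyp2c50 and Cyp2c65 and not before Cyp2b10 or Cyp2c55. The motif was chosen after the sequences were seen. It occurred in 392 of 32851 such windows of the table (1.19%), and in 3 of the 72 windows of genes that rose. Half-sites AGTTCA or AGGTCA, which nuclear receptors such as CAR, PXR and RXR bind, were searched on both strands. They occurred in 12 of the 72 windows of genes that rose (16.7%), against 24.2% of all windows. Among the 5 windows shown, 1 half-site occurred, before Cyp2c50. A same-direction pair of half-sites spaced by 4 bases occurred in 0 of the 72 windows and in 8 of all 32851. The windows of Cyp2c37 and Cyp2c50 were 87.8% identical over 245 aligned bases, while the other pairs of the 5 had 51.9% to 60.6% identity. A match describes letters only, and these windows do not reach distant enhancers.

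**Figure D3:**
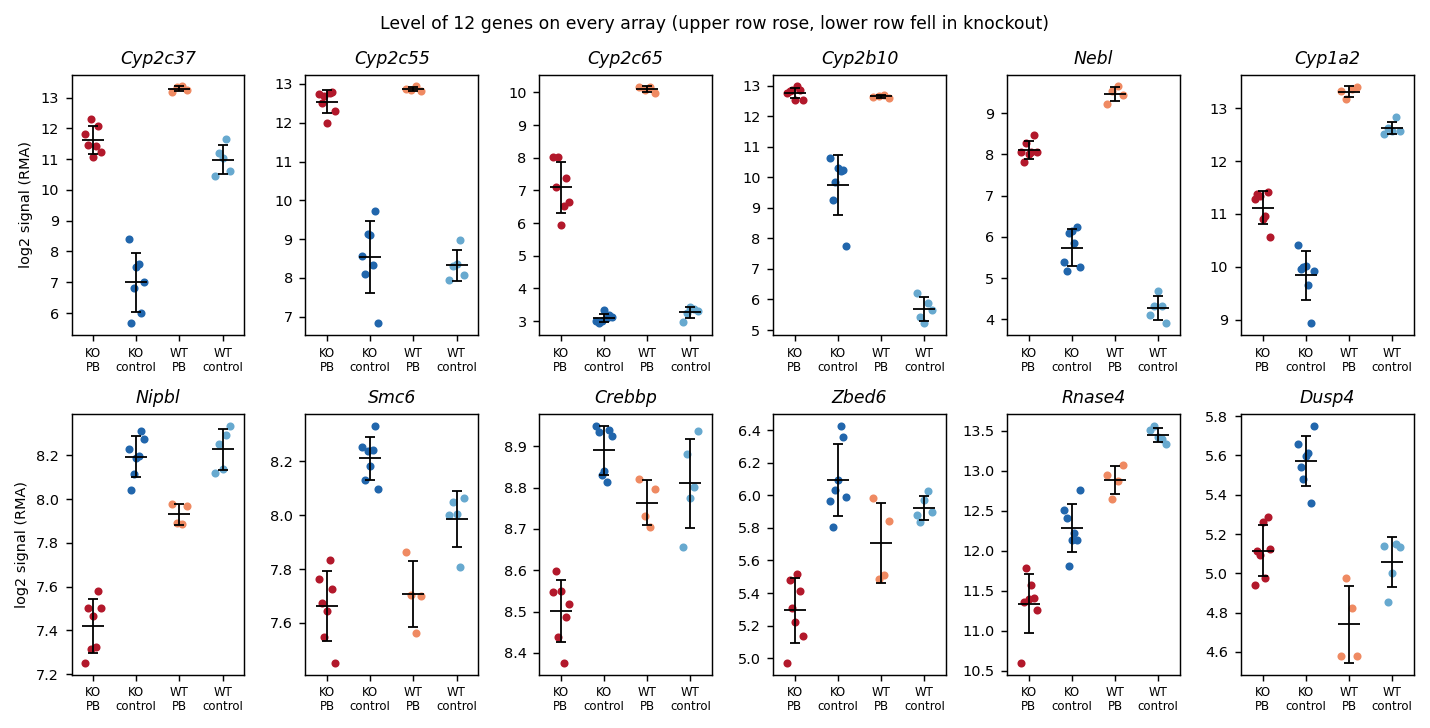
Log2 RMA signal of 12 genes on every array, with 1 point per array, bars for the mean and SD of each group, and knockout with phenobarbital (PB) left of its controls. The upper 6 genes rose and the lower 6 fell in knockout, and no treated knockout array overlaps a knockout control for any of them.

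Other P450 genes and xenosensors responded in part. Of 25 tested P450 genes of families 1 to 4 outside those above, 2 rose and 0 fell. Cyp1a2, which oxidises caffeine and arylamines (chr9:57676937-57683655), was at 10.56 to 11.41 (median 11.28) with phenobarbital and at 8.93 to 10.41 (median 9.95) in controls. The groups did not overlap (log2 change 1.28, SE 0.19, limma adjusted p = 0.00732). Cyp2g1, known from the olfactory epithelium, was at 5.79 to 6.67 and 4.44 to 5.42, also without overlap (log2 change 1.23, SE 0.15, limma adjusted p = 0.00133). Ahr, the aryl hydrocarbon receptor that controls Cyp1a2, was the only 1 of 30 receptors and partners that changed. It was at 9.20 to 9.64 (median 9.34) with phenobarbital and at 8.52 to 9.02 (median 8.88) in controls (log2 change 0.56, SE 0.086, limma adjusted p = 0.00793). Its other probe set was at 0.042 (adjusted p = 0.875). The CAR and PXR genes themselves did not pass, at -0.76 (SE 0.29, adjusted p = 0.285) for Nr1i3 and 0.40 (SE 0.11, adjusted p = 0.120) for Nr1i2. With the non-hepatocyte covariate both passed, Nr1i3 lower (-0.88, adjusted p = 0.0441) and Nr1i2 higher (0.43, adjusted p = 0.0370), as did Rxra, lower (-0.28, adjusted p = 0.0184). Without control replicates 2, 6 and 7 Nr1i3 was at -1.35 (adjusted p = 0.00194), while Nr1i2 did not pass (0.42, adjusted p = 0.134). With the macrophage covariate Nr1i2 passed and Nr1i3 did not (limma adjusted p = 0.0398 and 0.0729). Over 23 arrays neither Nr1i3 nor Nr1i2 passed (limma adjusted p = 0.101 and 0.0579).

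Hydrolases, oxidases and conjugating enzymes rose alongside, with smaller changes. Of 41 tested phase I enzymes other than P450s, 5 rose and 0 fell. Ces1g, a carboxylesterase, was at 10.43 to 11.14 with phenobarbital and at 9.57 to 10.06 in controls, without overlap (log2 change 0.96, SE 0.11, limma adjusted p = 0.000595). Ephx1, the microsomal epoxide hydrolase, was at 12.26 to 12.55 and 11.03 to 12.16, also apart (0.84, SE 0.15, limma adjusted p = 0.0162). The aldehyde oxidase Aox1 rose by 0.75, the carboxylesterase Ces2a by 0.69 and the aldehyde dehydrogenase Aldh1a7 by 0.26 on the log2 scale. The call of Aox1 was lost without phenobarbital replicate 1 or 6 (adjusted p = 0.0524 and 0.0543). That of Ces2a was lost without phenobarbital replicate 1, 2, 3, 5 or 6 (adjusted p = 0.0511 to 0.0633).

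Of 23 tested genes of glutathione transferases and glutathione synthesis 3 rose and 0 fell. They join glutathione to reactive products of phase I. Gsta2 was at 12.65 to 13.05 (median 12.92) with phenobarbital and at 10.72 to 12.45 (median 11.63) in controls (log2 change 1.22, SE 0.24, limma adjusted p = 0.0338). Gstm4 and Gstt1 rose by 0.75 and 0.42 (adjusted p = 0.0176 and 0.0322). Leaving out 1 array ended the call of Gsta2 in 9 fits and of Gstt1 in 10 of the 14, and without control replicates 2, 6 and 7 Gstt1 was at 0.32 (adjusted p = 0.0541). With the covariate 8 of the 23 passed, all higher, where 1.48% of all genes passed as higher. Gstm3 was at 10.05 to 13.33 (median 11.78) with phenobarbital and at 7.04 to 12.69 (median 8.71) in controls. Its groups overlapped and it did not pass (log2 change 2.59, SE 0.86, adjusted p = 0.207), but it did with the covariate (3.09, SE 0.32, adjusted p = 0.000183). Gstm1, at 0.90 (adjusted p = 0.157), likewise passed with it (1.04, adjusted p = 0.00147) and without control replicates 2, 6 and 7 (1.35, adjusted p = 0.00441), and Gstt3 lay just outside the threshold without it (1.14, adjusted p = 0.0519).

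Among 28 tested glucuronosyltransferases, sulphotransferases and genes of their co-substrates, 5 rose and 0 fell. The sulphotransferase Sult1c2 was at 7.31 to 7.89 with phenobarbital and at 5.50 to 7.20 in controls (log2 change 1.01, SE 0.21, limma adjusted p = 0.0394). Its groups did not overlap, but the call was lost in 11 of the 14 fits without 1 array. Sult1d1 rose by 0.77, and the glucuronosyltransferases Ugt2b35, Ugt2b34 and Ugt2b36 by 0.45, 0.44 and 0.24. Ugt2b35, Ugt2b34 and Ugt2b36 lost their calls in 9, 10 and 12 of those fits. Of 28 transporters only Abcc3, which exports conjugates from hepatocytes to blood, rose (0.50, SE 0.093, limma adjusted p = 0.0222), and it lost its call without control replicate 3 or phenobarbital replicate 3 or 6 (adjusted p = 0.0504 to 0.0610). Genes that feed electrons and heme to P450s did not pass: 0 of 19 in limma, with 4 higher and 1 lower at an unadjusted p under 0.05. Of all genes 6.56% were higher and 5.41% lower at that p. Alas1, the first enzyme of heme synthesis, had a wide spread (9.56 to 11.20 with phenobarbital and 7.88 to 10.82 in controls, log2 change 1.18, adjusted p = 0.281) and passed with the covariate (1.36, adjusted p = 0.0420). It did not pass with the macrophage covariate, without control replicates 2, 6 and 7 or over 23 arrays (limma adjusted p = 0.0505, 0.0907 and 0.287). Por had no probe set of its own here.

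Over the list of 43 tested CAR and PXR targets, which shares members with the groups above, 18 rose and 0 fell. Of the 43, 41 were higher, where 7198 of all 13826 genes were higher. The median log2 change was 0.73, against 0.0056 over all genes. The list rests on textbook targets chosen with results of these data known. With the covariate 25 rose, and without control replicates 2, 6 and 7 it was 22, where 1.01% of all genes rose. Of 23 targets of Nrf2, the transcription factor of the antioxidant response, 4 rose and 0 fell. They were Gsta2, Ephx1, Abcc3 and the pentose phosphate enzyme transketolase (Tkt, 0.30, adjusted p = 0.0394), and the first 3 are CAR targets too. Tkt was at 0.27 without control replicates 2, 6 and 7 (adjusted p = 0.0828) and lost its call in 12 of the 14 fits without 1 array.

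Outside these families, the gene with the largest rise was Nebl, which encodes the actin-binding protein nebulette (chr2:17342673-17734949). It was at 7.81 to 8.46 (median 8.07) with phenobarbital and at 5.18 to 6.25 (median 5.86) in controls, far apart. The log2 change was 2.37 (SE 0.17, limma adjusted p = 8.72e-06). Nsl1, a kinetochore protein, rose by 1.16 (adjusted p = 0.00527), and Rarres1, a retinoid-responsive membrane protein, by 0.76 (adjusted p = 0.0136). The semaphorin Sema3e rose by 0.70 (adjusted p = 0.00577) and Pir, which encodes the nuclear protein pirin, by 0.58 (adjusted p = 0.000595). None of these overlapped between the groups, and each passed in all fits that left out 1 array. All Sema3e controls (3.89 to 4.40) lay below the level of 4.56 used above for Cyp2c65, so the size of its rise is uncertain. The endoplasmic reticulum stress sensor Ern1 (0.38, adjusted p = 0.0282) was the only 1 of 27 genes of the unfolded protein response that changed, and its call was lost in 9 of the 14 fits. Cpe, carboxypeptidase E, rose by 0.91 on its highest probe set, but its other probe set was at -1.07 (adjusted p = 0.265).

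The 37 genes that fell did so by small amounts, from 0.22 to 0.94 on the log2 scale, with a median of -0.39. The largest fall was that of Rnase4, a secreted ribonuclease of hepatocytes (chr14:51091077-51106151), at 10.60 to 11.78 (median 11.40) with phenobarbital and 11.81 to 12.75 (median 12.22) in controls. The groups did not overlap (log2 change -0.94, SE 0.17, limma adjusted p = 0.0181). Ang, which encodes angiogenin and overlaps the same region (chr14:51091077-51102009), was at -1.17 (adjusted p = 0.0649). It passed with the covariate (-1.10, adjusted p = 0.0263) and over 23 arrays (adjusted p = 0.00783), and it was singled out after its values were seen.

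Nipbl, the loader of the cohesin ring on DNA (chr15:8289824-8465315), had the fall with the smallest p. It was at 7.25 to 7.58 (median 7.46) with phenobarbital and at 8.04 to 8.31 (median 8.20) in controls. The groups were far apart (log2 change -0.77, SE 0.061, limma adjusted p = 1.1e-05). Smc6, a subunit of the SMC5/6 complex of DNA repair (chr12:11265886-11319785), was at 7.45 to 7.83 and 8.10 to 8.33 (-0.55, SE 0.061, limma adjusted p = 0.000595). Zbed6, a transcriptional repressor, fell by 0.80 (SE 0.11, limma adjusted p = 0.00243). These 3 were the members that fell among 35 tested genes of cohesin, condensin and large chromatin proteins, where 0 rose and the median was -0.088. Over all genes tested 0.268% fell. At an unadjusted p under 0.05, 10 of the 35 were lower and 1 was higher, against 5.41% and 6.56% of all genes. Crebbp, a histone acetyltransferase outside that list (chr16:4081334-4213957), was at 8.38 to 8.60 with phenobarbital and 8.81 to 8.95 in controls (-0.39, SE 0.045, limma adjusted p = 0.000629). Its other probe sets were at -0.13, -0.11 and -0.0042, and none passed. Pbrm1, a subunit of a chromatin remodelling complex, and Nelfa, of a complex that pauses RNA polymerase, fell by 0.30 and 0.29. The other probe sets of Pbrm1 were at -0.10 and 0.071, and neither passed. Nelfa lost its call in 12 of the 14 fits without 1 array and in the fit over 23 arrays (adjusted p = 0.0518). Srrm2, a protein of nuclear speckles, was the only 1 of 28 nuclear RNAs and splicing factors that fell (-0.26, adjusted p = 0.0110), and 0 rose. The other probe sets of Srrm2 were at -0.27 and 0.14, and neither passed.

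Further genes that fell without overlap were Dusp4, a phosphatase of MAP kinases (-0.46, SE 0.070, limma adjusted p = 0.00732), and Slc7a2, a transporter of cationic amino acids (-0.43, adjusted p = 0.0198). Sntb2, a syntrophin, fell by 0.70 and Cldnd1, a claudin-like membrane protein, by 0.47. The other probe set of Cldnd1 went the other way, at 0.17 (limma adjusted p = 0.496). Olfm1, a secreted olfactomedin, fell by 0.41, the endosomal sorting protein Snx17 by 0.32 and the kinase Sgk3 by 0.28. Of these, Cldnd1 and Olfm1 lost their calls in 9 and 7 of the 14 fits without 1 array. Tpm2, a tropomyosin of smooth muscle and of stellate-derived myofibroblasts, was at 6.07 to 6.55 with phenobarbital and 6.68 to 7.68 in controls (-0.74, SE 0.14, limma adjusted p = 0.0222). It was the only 1 of 34 stellate cell and scar markers that fell, and its call was lost without phenobarbital replicate 6 (adjusted p = 0.0580). Acta2, smooth muscle actin, was at -1.005 (adjusted p = 0.0915) and passed with the covariate (-0.95, adjusted p = 0.0454) and over 23 arrays (adjusted p = 0.0221). It did not pass without control replicates 2, 6 and 7 (-0.82, limma adjusted p = 0.186). Acta2 is among the markers that the covariate was made from, so the fit with the covariate is not independent of its own signal. Stellate cell and scar markers had a median of -0.28 with all arrays and 0.077 without control replicates 2, 6 and 7, and their part in these falls was not tested.

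Among called genes, changes of both kinds were smaller on the other probe sets than on the highest one. Genes were called on that highest probe set, so this gap is partly fixed in advance by the choice. It does not show which probe sets respond more. Of the genes that fell 26 had several probe sets, and of their 47 other probe sets 40 were lower but only 5 passed the test among all probe sets. Their median log2 change was -0.16, against -0.40 for the highest probe set of the same genes. In 0 of the 26 did every probe set pass (limma). Nipbl had 5, at -0.77, -0.31, -0.21, -0.070 and -0.066, of which the first 2 passed, and Smc6 had 4, at -0.55, -0.25, -0.16 and -0.10, of which the first passed. Of the genes that rose 26 also had several probe sets, and 6 of them rose on each. Of their 39 other probe sets 32 were higher and 11 passed, with a median of 0.14, against 0.36 for the highest probe set. With every probe set tested on its own, 120 of 24089 rose (0.498%) and 214 fell (0.888%). Of those 214 falling probe sets 162 were not the highest of their gene, and their median was -0.40, while the highest probe sets of the same 143 genes had a median of -0.089. Those 162 were picked by their own fall, so that gap too is partly fixed by the choice. The share of falls was thus 37.0% among changed genes and 64.1% among changed probe sets.

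**Figure D4:**
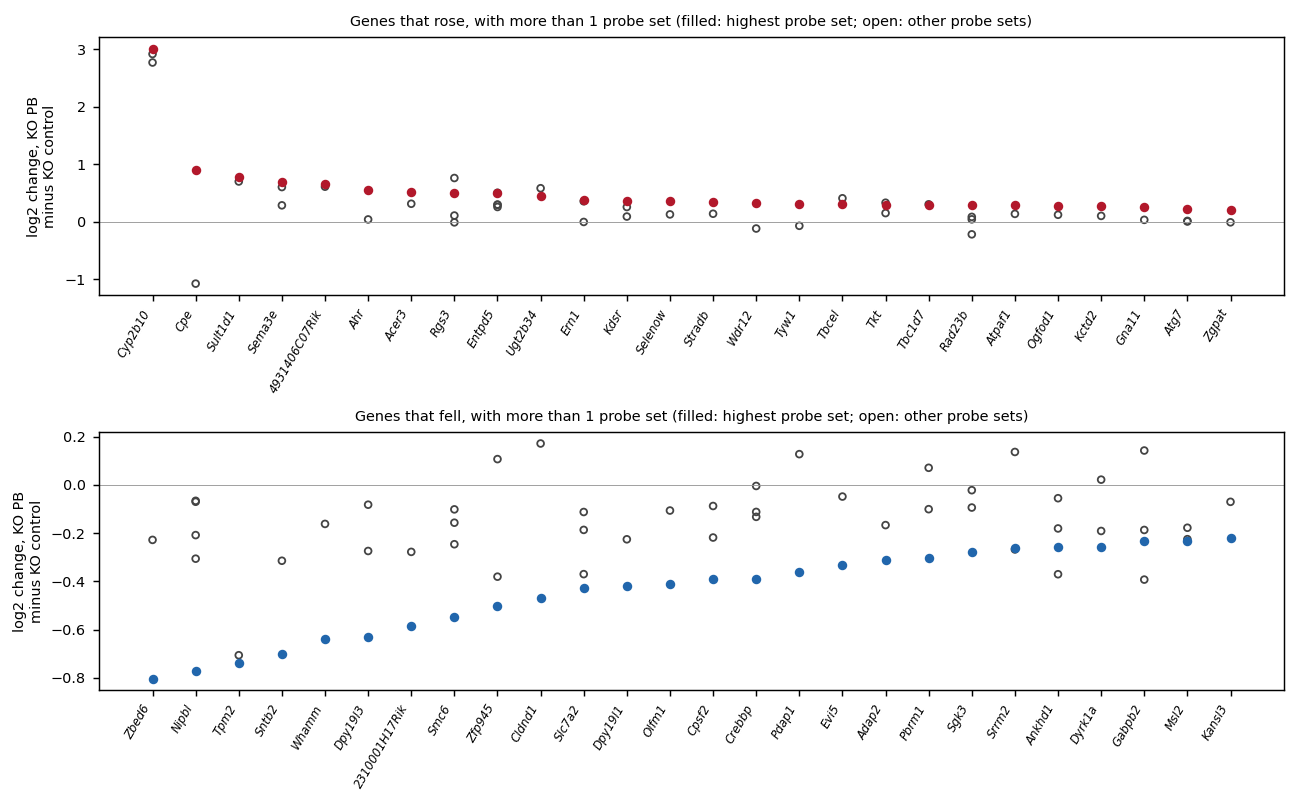
Log2 change with phenobarbital in knockout for each tested probe set of the changed genes that have more than 1, with genes along the horizontal axis and log2 units on the vertical axis. For genes that fell, the open points of the other probe sets (median -0.16) lie mostly closer to 0 than the filled points of the highest probe set (median -0.40). Genes were called on the filled points, so this gap is partly fixed by the choice.

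The mean of perivenous genes stayed below wild type in both groups. Of 38 tested perivenous and Wnt target genes 2 rose, Cyp1a2 and Ahr, and 0 fell, with a median of -0.016. With the covariate 3 rose and 6 fell, where 1.62% of all genes fell, and over 23 arrays 2 rose and 3 fell. The 6 were Cyp2e1, Oat, Nr1i3, the vitamin C enzyme Gulo, the epoxide hydrolase Ephx2 and Rnf43, an inhibitor of Wnt receptors. The mean of the list was 7.04 to 7.25 in knockout with phenobarbital and 7.11 to 7.36 in knockout controls, against 8.70 to 8.90 in wild type without the drug. Cyp2e1 was at 6.79 to 8.58 (median 7.62) with phenobarbital and at 7.51 to 10.74 (median 9.11) in controls. Its groups overlapped and it did not pass (log2 change -1.39, SE 0.40, adjusted p = 0.137), but it did with the covariate (-1.54, SE 0.32, adjusted p = 0.0195). Oat was similar, at -0.77 (adjusted p = 0.109) without the covariate and -0.67 (adjusted p = 0.0119) with it. Without control replicates 2, 6 and 7 neither passed, with Cyp2e1 at -1.66 and Oat at -0.54 (limma adjusted p = 0.0633 and 0.243). Over 23 arrays both did (limma adjusted p = 0.0261 and 0.0397). Glul, glutamine synthetase, was at 7.68 to 9.30 and 8.07 to 9.87 (-0.25, adjusted p = 0.807). Axin2, Lgr5 and Tbx3, targets of Wnt signalling, had log2 changes of -0.014, 0.087 and -0.15 (adjusted p = 0.974, 0.729 and 0.452).

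Proliferation and inflammation lists held no changed gene in limma. Of 28 cell cycle genes 0 passed, and 0 also at an unadjusted p under 0.05 in either direction. Mki67, a proliferation marker, was at 4.08 to 7.08 with phenobarbital and 4.24 to 7.57 in controls (log2 change 0.020, SE 0.55), and its wide range in both groups leaves only large differences detectable. Ccnd1, cyclin D1, was at 7.30 to 10.05 and 6.61 to 9.995 (0.49, adjusted p = 0.840) and passed with the covariate (0.89, adjusted p = 0.0160). It did not pass with the macrophage covariate, without control replicates 2, 6 and 7 or over 23 arrays (limma adjusted p = 0.121, 0.131 and 0.748). Of 28 interferon-response genes 0 changed (1 lower at an unadjusted p under 0.05), with a median of -0.26 with all arrays, -0.027 with the covariate and 0.38 without control replicates 2, 6 and 7. The neutrophil alarmins S100a8 and S100a9 did not pass, at -1.51 and -1.17 (adjusted p = 0.276 and 0.199), but did with the covariate, at -1.19 and -0.96. Both are among the markers that the covariate was made from, so that fit is not independent of their own signal. Without control replicates 2, 6 and 7 they were at -0.61 and -0.54 and did not pass (limma adjusted p = 0.526 and 0.334). Bile acid synthesis (0 of 19), the circadian clock (0 of 19) and the growth hormone axis with sex-biased genes (0 of 26) held no changed gene either. Their members at an unadjusted p under 0.05 numbered 0, 1 and 7 in all. Of 22 genes of cholesterol synthesis 0 passed, with 5 lower at an unadjusted p under 0.05, but 8 fell without control replicates 2, 6 and 7 (median -0.41), where 1.08% of all genes fell. The immediate-early genes Egr1, Myc and Gadd45b did not pass, at -0.64, 0.088 and 0.16, nor did the imprinted Meg3 at -0.11 on its highest probe set, although 1 of its 11 probe sets rose (0.33, adjusted p = 0.0397).

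The response in knockout was then set against that in wild type, in a fit over all 23 arrays. The difference of the effects, knockout minus wild type, passed for 121 genes (0.875%), positive in 0.354% and negative in 0.521%. In wild type, 1.95% of genes rose and 1.9% fell. Of the 63 genes that rose in knockout, 57 were higher in wild type too and 35 rose there. The difference passed for 14 of them, positive in 7 and negative in 7. Of the 37 that fell, 27 were lower in wild type and 11 fell there, and the difference passed for 4, each lower in knockout. The 2 effects share no control arrays.

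Among induced P450s the difference ran both ways. Cyp2c37 rose more in knockout (4.64) than in wild type (2.30), with a difference of 2.34 (limma adjusted p = 0.0236). It started lower and stayed lower in knockout. Controls were at 5.66 to 8.39 in knockout and 10.45 to 11.65 in wild type, and treated livers at 11.08 to 12.30 and 13.19 to 13.37. Cyp2b10 and Cyp2c65 rose less, by 3.01 and 3.997 in knockout against 6.96 and 6.83 in wild type, with differences of -3.95 and -2.83 (adjusted p = 4e-05 and 0.000129). Nebl likewise rose by 2.37 in knockout and 5.20 in wild type (difference -2.83, adjusted p = 5.39e-07). For Cyp2c55 the difference did not pass (-0.54, adjusted p = 0.803), nor for Cyp2c50 (1.98, adjusted p = 0.245), Cyp2c54 (1.29, adjusted p = 0.712) or Cyp1a2 (0.59, adjusted p = 0.420). Sema3e and Ces2a rose less in knockout, with differences of -1.14 and -0.80 (adjusted p = 0.0298 and 0.0396). The knockout controls of Sema3e and Cyp2c65 lay below 4.56, so the sizes of their differences are uncertain. The wild-type controls of Nebl (3.90 to 4.69) lay around that level, so the sizes of its rise in wild type and of its difference are uncertain too.

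Rab5c, a small GTPase of early endosomes (chr11:100715003-100738215), was the only gene whose highest probe set changed in opposite directions in knockout and wild type. Over all 24089 probe sets 7 did so, and the other 6 were probe sets of Ecpas, Efr3a, Kif1c, Tnpo2, Tug1 and Zbtb20 that are not the highest of their gene. Rab5c was at 8.79 to 9.31 (median 9.09) in knockout with phenobarbital and at 8.15 to 8.67 (median 8.44) in knockout controls, without overlap (log2 change 0.69, SE 0.10, limma adjusted p = 0.0063). In wild type it was at 8.06 to 8.27 with phenobarbital and 8.27 to 8.99 without (-0.60, adjusted p = 0.0118), and the difference was 1.29 (adjusted p = 0.000159). Mia2, a cargo receptor of the endoplasmic reticulum, rose in knockout (0.64) and was at -0.32 in wild type (difference 0.97, adjusted p = 0.00287). Its knockout controls (4.13 to 4.82) lay around the level of 4.56, so the sizes of its rise and difference are uncertain. Upf1, the helicase of nonsense-mediated decay, rose by 0.32 in knockout and was at -0.16 in wild type (difference 0.48, adjusted p = 0.0127). Differences also passed for Pir (0.44) and the repair protein Rad23b (0.42). The rise of Rad23b in knockout (0.29) lost its call in 12 of the 14 fits without 1 array. Its other probe sets were at -0.22, 0.044 and 0.087 in knockout, and none passed. Among genes that fell, the difference passed for Nipbl (-0.48, adjusted p = 0.00764), Crebbp (-0.34, adjusted p = 0.0234) and Adap2, an ARF GTPase-activating protein (-0.38, adjusted p = 0.0253). The fall of Adap2 in knockout lost its call without phenobarbital replicate 6 (adjusted p = 0.0543). Nipbl fell in wild type as well, by 0.30, while Crebbp was at -0.047 there. The other probe sets of Crebbp were at -0.13, -0.11 and -0.0042 in knockout and at -0.10, -0.067 and -0.35 in wild type.

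**Figure D5:**
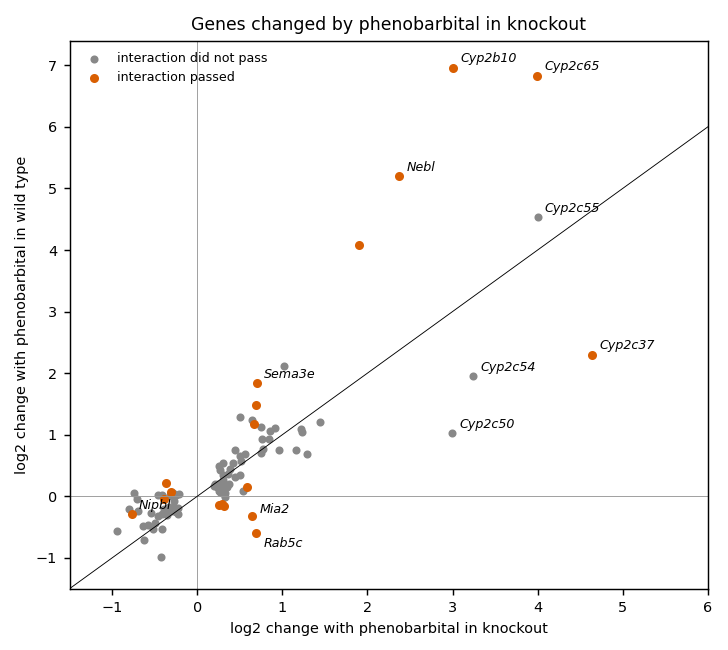
Log2 change with phenobarbital in knockout (horizontal) and in wild type (vertical) for the 100 genes that changed in knockout, in log2 units, with the line of equal change. Genes whose difference between the genotypes passed the test are orange, among them Cyp2b10, Cyp2c65 and Nebl above the line and Cyp2c37, Mia2 and Rab5c below it.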

How the data were processed

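Liver RNA was measured on Affymetrix 3' in vitro transcription arrays, 1 array a sample. The authors deposited log2 values of each probe set, made by RMA in the affy package per the submitters' processing notes. Versions, and the set of arrays normalized jointly, are not given in the sources used here. They were used as deposited. Of 45037 probe sets, the platform annotation gives 1 gene for 34945, several for 932 and none for 9160. Symbols of 34741 were updated through Entrez identifiers to GRCm38.p6, and 204 kept the platform's.

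Each gene was represented by its own probe set with the highest mean over 23 arrays. Of 18193 genes, 13826 exceeded the 40th percentile of the array in at least 4 of 23 arrays. Limma 3.58.1 (R 4.3.3, lmFit and eBayes, two-sided) was fitted to the 14 knockout arrays, since these spread more than wild-type arrays. Wild-type effects and differences between genotypes came from 1 mean per group over 23 arrays. P-values were adjusted over the genes tested (Benjamini-Hochberg), with a threshold of 0.05. The steps were tested on simulated data. Precision is limited by the number of arrays.

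Named genes were a set of 23 markers, of which Por was not measured, the 20 largest rises and falls without overlap, up to 4 changed members of each list with at least 2 changed, and the 6 largest differences between genotypes each way among changed genes. List members may be named beside their list. The samples, 41 gene lists and the rule were chosen with earlier results of these data known. Replicate numbers did not pair samples: same-numbered arrays correlated from -0.695 to 0.628 in their deviations. The planned test of RNA quality could not be run, since the table holds no 3' and 5' control probe sets. Slide and scan date were not tested.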

Additional observations from a re-analysis of the deposited data

Results flagged for a closer look

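In 5 of 160 gene and group sets checked, 1 array stood far from the rest of its group, and chance flags about 1 in 20. These were Rarres1 at 12.29 in phenobarbital replicate 3 (next 11.94) and Ugt2b35 at 12.87 in phenobarbital replicate 6 (next 12.54). Among controls they were Alb at 14.76 in replicate 4 (next 14.79), Gadd45b at 8.10 in replicate 7 (next 7.26) and Sema3e at 3.89 in replicate 5 (next 4.19). Rarres1, Ugt2b35 and Sema3e changed with phenobarbital in knockout. Ugt2b35 lost its call in 9 of the 14 fits without 1 array, while Rarres1 and Sema3e passed in all of them.

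The effect of phenobarbital, knockout minus wild type, passed limma's test for 18 of the named genes. It was negative for Cyp2b10 (-3.95), Cyp2c65 (-2.83), Nebl (-2.83), Meg3 (-2.18), Gadd45b (-1.82), Sema3e (-1.14), Ces2a (-0.80), Nipbl (-0.48), Adap2 (-0.38) and Crebbp (-0.34). It was positive for Egr1 (3.22), Cyp2c37 (2.34), Rab5c (1.29), Lgr5 (1.09), Mia2 (0.97), Upf1 (0.48), Pir (0.44) and Rad23b (0.42). Egr1, Lgr5, Meg3 and Gadd45b did not pass in knockout. In wild type their log2 changes were -3.85, -1.01, 2.07 and 1.98 (adjusted p = 7.54e-06, 0.000171, 1.84e-10 and 1.51e-05). Knockout controls of Cyp2c65 and Sema3e lay below the level of 4.56 used above, and those of Lgr5 and Mia2 around it. The wild-type controls of Nebl (3.90 to 4.69) also lay around it. The sizes of the differences of these genes are therefore uncertain.

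Probe sets that the annotation assigns to no gene or to several were outside the comparison of genes. Among 4584 of them above the filter, 77 changed with phenobarbital in knockout, 19 higher and 58 lower.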

How the results depend on the processing

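The count of 100 changed genes (63.0% higher) became 284 in the fit over all 23 arrays, 246 with array weights and 289 without control replicates 2, 6 and 7. It was 345 with the macrophage covariate and 428 with the non-hepatocyte covariate (204 higher, 224 lower). With the replicate number as a block, 20 genes passed; the numbers do not pair the samples, and not every array correlated best with its own number. Of probe sets, 334 passed among those of 1 gene and 422 among all, a count added after seeing the data. Leaving out 1 array gave 52 to 146 genes. The count was 81 without a filter, 126 with the filter at the 60th percentile, 113 after quantile normalization, 94 after median centring, 89 with the mean of probe sets and 104 with a trended and robust prior. Under these 6 settings 61.8% to 71.7% of the changed genes were higher, against 57.0% over 23 arrays, 50.0% with array weights, 48.4% without control replicates 2, 6 and 7, 50.4% with the macrophage covariate and 47.7% with the non-hepatocyte covariate. Of all probe sets of 1 gene that changed, 35.9% were higher. The count of differences between genotypes, 121, became 273 without control replicates 2, 6 and 7 and 323 with array weights. Changed list members, 30 of 873, became 68 without control replicates 2, 6 and 7, 54 over 23 arrays and 78 with the covariate. Of 73 named genes, Cpe turned sign with the mean of probe sets (-0.082). Of the 73, 67 kept side and direction without control replicates 2, 6 and 7, 67 with the non-hepatocyte covariate, 70 over 23 arrays and 58 with the mean of probe sets. Values close to the threshold were Rab1b inside (adjusted p = 0.0487) and Glyr1 outside (adjusted p = 0.0519). The test of RNA quality was not run. No cause of these differences was tested.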

Other observations

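Genes that passed with the non-hepatocyte covariate and not in the fit without it numbered 328, with 141 higher and 187 lower. Of these 236 also passed with the macrophage covariate, 103 without control replicates 2, 6 and 7, 123 over 23 arrays and 119 with array weights, and 50 in none of these. Without the covariate 327 had the same sign, and 272 an unadjusted p under 0.05. The genes named here were singled out after their values were seen. Cyp2c68 ran against its induced relatives, at 6.96 to 9.71 (median 8.73) in knockout with phenobarbital and 8.70 to 11.47 (median 11.19) in knockout controls. Its log2 change was -1.86 (limma adjusted p = 0.120), and -2.12 with the covariate (adjusted p = 0.00173). Cd36, a fatty acid transporter, was at 9.97 to 10.70 and 8.17 to 10.53 (0.90, adjusted p = 0.241, and 1.06 with the covariate, adjusted p = 0.00933). The efflux pump Abcc4 was at 0.73 (adjusted p = 0.490) and 0.93 with the covariate (adjusted p = 0.0365), and in wild type it rose by 3.08. In knockout it was among the 50 that passed in none of the other fits. Smpd3, a neutral sphingomyelinase, was at 1.19 (adjusted p = 0.237) and 1.40 with the covariate (adjusted p = 0.00726).

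Enho, which encodes the secreted peptide adropin, was at -0.94 in knockout (adjusted p = 0.111) and -0.99 with the covariate (adjusted p = 0.0371), and it fell by 1.98 in wild type. Gulo, the last enzyme of vitamin C synthesis in mice, was at 5.91 to 7.15 with phenobarbital and 6.72 to 7.83 in controls. It had a log2 change of -0.90 (adjusted p = 0.0720), and -0.82 with the covariate (adjusted p = 0.0213). Without control replicates 2, 6 and 7 Gulo did not pass (-0.65, limma adjusted p = 0.164). Fabp5, a fatty acid-binding protein, was at -0.63 (adjusted p = 0.304) and -0.75 with the covariate (adjusted p = 0.0134).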
